A study of Mus musculus with 22 samples.

Results

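Single-cell RNA-seq counts of sorted fetal liver progenitors were added up over all cells of a library, and the sums of 2 libraries labelled KO were compared with those of 2 libraries labelled WT. The cells were LSK cells, a fraction that carries no lineage markers and has Sca-1 and c-Kit on its surface, and in which stem cells of the blood and their multipotent offspring are found. KO embryos were Vav-Cre Mettl3fl/fl. WT embryos were Mettl3fl/fl without Vav-Cre, so that both groups carried the floxed gene. Vav is a promoter active in blood cells, and all embryos were at E14.5. The 4 libraries are part of a series of 22 samples, and the labels call each one a biological replicate from 1 mouse. Cells were assigned to a library by the prefix of their name. A cell needed 500 counts or more, less than 20% of them mitochondrial, which 15678 of the 15707 cells in the table had, and 14179 autosomal genes of 14780 listed genes entered the comparison. Bulk RNA-seq of LSK cells of the same genotypes and age, with 3 KO and 3 WT libraries, served as a separate readout of the same genes.

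Mettl3 is the catalytic subunit of the methyltransferase that places N6-methyladenosine (m6A) on messenger RNA, a mark that reader proteins of the YTH family bind and that affects splicing, decay and translation. Cells recognise double-stranded RNA through sensors such as RIG-I, MDA5, PKR and the OAS enzymes. Type I interferon then acts through a complex of transcription factors that binds a short element in the promoters of interferon-stimulated genes. In fetal liver, LSK cells lie at the root of myeloid, erythroid and lymphoid output, and a part of them already transcribes lymphoid genes at a low level.

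The summed libraries contained 9.59 and 11.64 M counts for KO, against 7.26 and 8.31 M for WT, over 4920 and 3884 KO cells and 2731 and 4143 WT cells, and any pair of libraries shared 0 to 3 barcodes. WT library 1 stood apart in its ribosomal protein genes, which took 30.8% of its counts, against 22.9 to 25.5% in the other 3 libraries. Immediate early genes, which are induced within minutes of cell handling, summed to 1284 and 443 CPM (counts per 1000000 counts of the library, TMM-normalized) in KO libraries 1 and 2 and to 2742 and 480 CPM in WT libraries 1 and 2. Cells with at least 5 globin counts made up 6.00 and 3.17% of kept cells in KO libraries 1 and 2. In WT libraries 1 and 2 they made up 6.59 and 1.40%. Cells with at least 3 counts of late granule markers made up 5.41 and 0.283% in KO and 2.05 and 0.314% in WT. Both kinds of cell were more common in library 1 of each genotype, and the cause was not tested. Xist, the RNA of the inactive X chromosome, had 3069 and 3538 counts in KO and was listed at 0 in WT. The Y-linked genes Ddx3y, Eif2s3y, Kdm5d and Uty were listed at 0 in both KO libraries and had 71 to 318 counts in each WT library; nearly all counts that KO library 1 had on Y genes were of Erdr1 (725), which lies in the region shared with the X chromosome. Genotype and sex therefore cannot be told apart among these 4 libraries. A gene listed above 0 in a library had a count in at least 10 of its cells, and no gene had a count in 1 to 9 cells. A listed 0 therefore stands for at most 9 cells, and fold changes and counts of list members below are given only for the 11596 tested genes listed in all 4 libraries. Of the genes whose products define the sort, Ly6a (Sca-1) was higher in both KO libraries, with values given below. Kit had 45.1 and 55.3 CPM in KO and 39.1 and 60.8 CPM in WT, and Cd34, a progenitor gene outside the sort, had 190 and 303 CPM in KO and 199 and 268 CPM in WT; both sets overlap. Ptprc, the pan-leukocyte gene CD45, had 123 and 130 CPM in KO and 92.2 and 134 CPM in WT, which also overlap. Of the lineage genes that the sort should remove, Cd3e, Cd8a, Ms4a1, Ly6g and Itgam were not among the genes listed in the table, and Cd4 reached at most 3.38 CPM. Nkg7, which early progenitors also transcribe, had 31.3 and 35.7 CPM in KO and 50.6 and 40.0 CPM in WT.

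With 2 libraries a side, edgeR's quasi-likelihood test over 12849 genes called 0 of them at an adjusted p under 0.05 (0% of the genes tested), and the smallest adjusted p was 0.141. At an unadjusted p under 0.05, 1130 genes (8.79%) were higher in KO and 735 (5.72%) were lower. DESeq2 called 210 genes higher (1.63%) and 93 lower (0.724%) from the same sums. A fit limited to the genes listed in all 4 libraries, which was not among the planned settings, called 6 (0.0517%). They were Rtp4, Oasl2, Isg15, Usp18 and Wtap on the higher side and Ly6d on the lower side. Of those 11596 listed genes, 2983 (25.7%) had both KO libraries above both WT libraries and 2789 (24.1%) had both below. An exact permutation test of a single value over 2 against 2 libraries cannot go below a two-sided p of 0.333.

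In the libraries labelled KO, Mettl3 itself was higher, not lower: it had 605 and 631 counts (69.3 and 56.2 CPM) in KO, against 249 and 287 counts (39.2 and 35.9 CPM) in WT. The groups do not overlap, and the log2 fold change was 0.74 (SE 0.17, adjusted p = 0.246, edgeR). In bulk, Mettl3 fell to 4.31, 6.58 and 5.77 CPM in KO, against 45.0, 45.0 and 34.7 CPM in WT, or -2.92 as a log2 fold change (SE 0.17, adjusted p = 1.38e-05). The 10 libraries fitted together gave a difference between these changes of 3.70 on the log2 scale (SE 0.27, adjusted p = 0.000429 over 10605 genes). That fit was limited to genes listed in all 4 libraries, and it called 1 other gene, Nfya, so that the calls were 0.0189% of the genes. The fit over all 11430 genes measured in both called 60 (0.525%), of which 12 were listed in all 4 libraries, Mettl3 and Nfya among them. Nfya, a subunit of the CCAAT-binding factor NF-Y, had 28.2 and 26.1 CPM in KO against 17.0 and 18.1 CPM in WT, and fell in bulk (log2 fold change -0.56, adjusted p = 0.000163). Which exons the Mettl3 allele loses and which end of a transcript the single-cell reads cover are not given in the sources used here, so the Mettl3 level is no check of the labels.

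The rest of the m6A machinery was mostly higher. Of its 23 listed members other than Mettl3, 16 had both KO libraries above both WT libraries and 1 had both below. Among all listed genes these shares were 25.7% and 24.1%. The 23 members had a median log2 fold change of 0.42, against -0.01 over all listed genes. Wtap, the subunit that anchors the writer complex in nuclear speckles, had 183 and 177 CPM in KO and 69.3 and 61.8 CPM in WT. Its log2 fold change was 1.46 (SE 0.14), with an adjusted p of 0.229 over all genes and 0.0379 among the listed genes. Rbm15, an RNA-binding subunit that recruits the complex to its targets, had 48.2 and 31.1 CPM in KO and 22.2 and 16.6 CPM in WT (log2 fold change 1.03, or 0.68 without KO library 1), and Mettl16, a separate m6A methyltransferase, had 147 and 132 CPM in KO and 66.5 and 81.2 CPM in WT. The reader Ythdf2, which speeds the decay of methylated transcripts, had 277 and 297 CPM in KO and 156 and 193 CPM in WT. In contrast, Mettl14, the partner of Mettl3, had 25.4 and 32.1 CPM in KO and 24.9 and 28.5 CPM in WT, which overlap. The eraser Fto overlapped too, with 15.9 and 19.7 CPM in KO and 16.4 and 21.6 CPM in WT. In bulk, 12 of the 23 genes rose and 1 fell, beside 25.9% of genes that rose and 19.5% that fell among the 10605 genes measured in both assays. Wtap was among those that rose, with 247, 272 and 272 CPM in KO and 105, 100 and 103 CPM in WT.

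Interferon-stimulated genes led the upper end of the comparison. Of 102 genes on the list, 90 were tested and 74 were listed in all 4 libraries. Among those 74, 59 had both KO libraries above both WT libraries and 2 had both below, beside 25.7% and 24.1% of all listed genes. Their median log2 fold change was 0.91, against -0.01 over all listed genes. In bulk, 57 of the 74 rose and 1 fell, beside 25.9% and 19.5% of all genes. Their bulk median was 0.86, against 0.04 over all genes. The promoters of 6 of these genes are shown because each holds the core of the element that the interferon-activated factors bind. They are the 250 bases before the RefSeq transcript start on the gene's strand (GRCm38.p6). Capitals mark matches to a motif of GAAA, 2 bases of any kind and GAAA, or on the other strand TTTC, 2 bases of any kind and TTTC, and matches may overlap each other. Isg15 lies at chr4:156200819-156201068 on the minus strand and Oas1a at chr5:120907526-120907775 on the minus strand. Irgm1 lies at chr11:48871421-48871670 on the minus strand and Ifit1 at chr19:34640639-34640888 on the plus strand. Rsad2 lies at chr12:26456453-26456702 on the minus strand and Bst2 at chr8:71537473-71537722 on the minus strand.
Isg15: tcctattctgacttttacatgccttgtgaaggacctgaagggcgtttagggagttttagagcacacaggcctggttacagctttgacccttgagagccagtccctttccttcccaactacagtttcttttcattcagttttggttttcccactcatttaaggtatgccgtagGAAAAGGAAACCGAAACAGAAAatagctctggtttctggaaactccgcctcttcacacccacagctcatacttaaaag
Oas1a: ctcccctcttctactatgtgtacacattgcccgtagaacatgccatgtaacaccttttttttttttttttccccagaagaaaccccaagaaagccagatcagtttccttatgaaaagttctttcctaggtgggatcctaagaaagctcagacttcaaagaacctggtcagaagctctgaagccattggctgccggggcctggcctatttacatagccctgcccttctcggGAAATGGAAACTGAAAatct
Irgm1: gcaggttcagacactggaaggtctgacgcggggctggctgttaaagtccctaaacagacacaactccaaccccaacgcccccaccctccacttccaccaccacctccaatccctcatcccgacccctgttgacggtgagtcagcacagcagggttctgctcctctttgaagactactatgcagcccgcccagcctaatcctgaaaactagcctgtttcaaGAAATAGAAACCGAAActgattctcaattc
Ifit1: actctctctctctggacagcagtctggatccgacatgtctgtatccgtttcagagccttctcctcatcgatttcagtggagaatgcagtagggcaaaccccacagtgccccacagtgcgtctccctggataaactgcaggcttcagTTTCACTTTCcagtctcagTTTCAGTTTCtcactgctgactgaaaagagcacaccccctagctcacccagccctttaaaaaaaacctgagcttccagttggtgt
Rsad2: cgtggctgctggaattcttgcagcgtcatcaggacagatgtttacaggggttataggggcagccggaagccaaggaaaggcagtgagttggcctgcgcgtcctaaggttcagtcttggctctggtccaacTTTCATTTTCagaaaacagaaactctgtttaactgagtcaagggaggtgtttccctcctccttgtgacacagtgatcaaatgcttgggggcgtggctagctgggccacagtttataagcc
Bst2: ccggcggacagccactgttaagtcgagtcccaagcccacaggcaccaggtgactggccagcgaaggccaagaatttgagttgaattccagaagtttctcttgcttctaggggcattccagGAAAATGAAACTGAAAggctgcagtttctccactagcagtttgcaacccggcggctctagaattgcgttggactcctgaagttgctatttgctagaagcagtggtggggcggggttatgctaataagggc
Isg15 held 3 overlapping matches starting 78 to 66 bases before the transcript start, and Oas1a held 2 overlapping matches at 20 and 14 bases before it. The Irgm1 matches also overlap, at 30 and 24 bases, whereas those of Ifit1 are separate and on the other strand, at 104 and 85 bases. Rsad2 held 1 match on the other strand at 120 bases, and Bst2 held 2 overlapping ones at 130 and 124 bases. Over all 32851 promoters of the table, 2.98% held a match. Of 8639 tested genes matched to a promoter by symbol, 3.39% had a match in at least 1 promoter, and of the 80 list members matched by symbol, 40.0% did. Oasl2, Xaf1, Cmpk2, Lgals3bp, Ifitm3, Ifih1, Irf7, Isg20 and Rnf213 had none of these letters in the window.

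Effectors of the antiviral state showed the widest separation. Rtp4, a chaperone of G protein-coupled receptors that type I interferon induces, had 152 and 145 CPM in KO and 13.2 and 21.4 CPM in WT. The lowest KO library lay far above the highest WT library, and the log2 fold change was 3.09 (SE 0.26), with an adjusted p of 0.191 over all genes and 0.0175 among listed genes. Isg15, the ubiquitin-like modifier, had 42.4 and 23.2 CPM in KO and 1.89 and 2.25 CPM in WT (log2 fold change 3.96, SE 0.40, adjusted p = 0.0248 among listed genes). Usp18, which removes Isg15 from proteins and dampens the interferon receptor, had 23.7 and 22.5 CPM in KO and 3.94 and 3.63 CPM in WT. The pattern of Usp18 was tight within each genotype, and the log2 fold change was 2.61 (SE 0.19, adjusted p = 0.0248 among listed genes). Over all genes, the edgeR adjusted p of Isg15 and that of Usp18 were at least 0.141. The other conjugation genes lay closer together. Ube2l6, the conjugating enzyme, had 16.3 and 18.3 CPM in KO and 12.4 and 8.75 CPM in WT, and the ligase Herc6 overlapped, with 5.50 and 6.15 CPM in KO and 5.67 and 5.25 CPM in WT.

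Rsad2 encodes viperin, which makes a chain-terminating nucleotide, and its neighbour Cmpk2 is a mitochondrial nucleotide kinase. Rsad2 had 19.01 and 16.9 CPM in KO and 1.58 and 3.13 CPM in WT, and Cmpk2 had 27.4 and 19.9 CPM in KO and 5.51 and 5.75 CPM in WT. Neither gene overlapped between genotypes, and the log2 fold changes were 2.896 (SE 0.34) and 2.06 (SE 0.24), both with an adjusted p of 0.229. Among the OAS genes, whose products sense double-stranded RNA and activate RNase L, Oasl2 had 34.8 and 32.6 CPM in KO and 4.57 and 5.38 CPM in WT. Its log2 fold change was 2.75 (SE 0.19), with an edgeR adjusted p of 0.0175 among listed genes and of at least 0.141 over all genes. Oas1a had 35.0 and 63.1 CPM in KO and 12.1 and 16.9 CPM in WT, and since its reads could be split with near-identical Oas1 copies, its level is uncertain. Oas1g, Oas2 and Oas3 were listed at 0 in both WT libraries. They had counts in 45 and 83, 52 and 55, and 32 and 28 cells of KO libraries 1 and 2, where a listed 0 means at most 9 of 2731 and 9 of 4143 WT cells (up to 0.330% and 0.217%). Oasl1 was found in 93 and 97 KO cells and in 0 and 11 WT cells as listed.

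The IFIT proteins bind viral RNA ends. Ifit1 had 13.3 and 18.3 CPM in KO and 2.84 and 2.501 CPM in WT, which is 2.57 as a log2 fold change (SE 0.28, adjusted p = 0.229). Ifit2 was at 9.27 and 12.2 CPM in KO and 4.10 and 3.88 CPM in WT. Both genes kept KO above WT in every library, and Ifit3 was listed in 29 and 28 KO cells and at 0 in both WT libraries. The chemokine gene Cxcl10 was likewise listed in 40 and 36 KO cells and at 0 in WT, and it rose in bulk (log2 fold change 4.24, adjusted p = 2.56e-05). Ccl5, another chemokine, overlapped, with 18.2 and 1.96 CPM in KO and 6.77 and 2.501 CPM in WT. Ccl2, also a chemokine gene, went the other way, listed at 0 in both KO libraries and in 21 and 0 WT cells. Phf11a of the interferon list and Tlr3, a sensor of double-stranded RNA, did too, each in 11 and 0 WT cells. Among all 12849 genes tested, 129 were listed at 0 in both WT libraries and 76 at 0 in both KO libraries.

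Sensors of double-stranded RNA were higher by smaller margins. Ifih1, which encodes MDA5, had 22.2 and 29.3 CPM in KO and 8.19 and 11.1 CPM in WT (log2 fold change 1.41, SE 0.25, adjusted p = 0.229). Ddx58, which encodes RIG-I, had 14.7 and 22.3 CPM in KO and 5.20 and 8.50 CPM in WT. Dhx58, the related helicase LGP2, had 12.8 and 17.4 CPM in KO and 4.73 and 6.25 CPM in WT. None of the 3 helicase genes overlapped between genotypes. Eif2ak2, the kinase PKR, had 87.9 and 89.9 CPM in KO and 38.4 and 51.3 CPM in WT. Adar, the editing enzyme that disrupts double-stranded RNA, had 24.4 and 24.3 CPM in KO and 11.03 and 11.5 CPM in WT. Of the 22 listed genes on the double-stranded RNA sensing list, which shares members with the interferon list, 16 had both KO libraries above WT and 2 below. Among all listed genes, 25.7% lay above and 24.1% below. The sensing list had a median of 0.70, and in bulk 16 of 22 rose and 0 fell, beside 25.9% and 19.5% of all genes.

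Signal transducers divided. Irf7, the factor that amplifies the response, had 21.1 and 16.5 CPM in KO and 5.99 and 3.50 CPM in WT (log2 fold change 2.00, SE 0.32, adjusted p = 0.229). Irf9 had 44.0 and 36.5 CPM in KO and 21.4 and 22.5 CPM in WT. Stat2 and Irf1 overlapped between genotypes, while Irf8, a factor of monocyte and dendritic cell fate, lay the other way, with 53.9 and 43.0 CPM in KO and 88.4 and 73.9 CPM in WT. All 9 listed interferon-inducible GTPase genes had both KO libraries above both WT libraries, beside 25.7% of all listed genes. The median log2 fold change of these GTPase genes was 0.97. Among them Irgm1, which acts in autophagy of intracellular pathogens, had 78.0 and 85.7 CPM in KO and 23.9 and 34.02 CPM in WT (1.49, SE 0.21, adjusted p = 0.229). Ifitm3, a membrane protein that blocks viral entry, had a higher level than the other genes of these roles described here, at 781 and 641 CPM in KO and 257 and 324 CPM in WT (1.29, SE 0.19, adjusted p = 0.229).

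**Figure D1:**
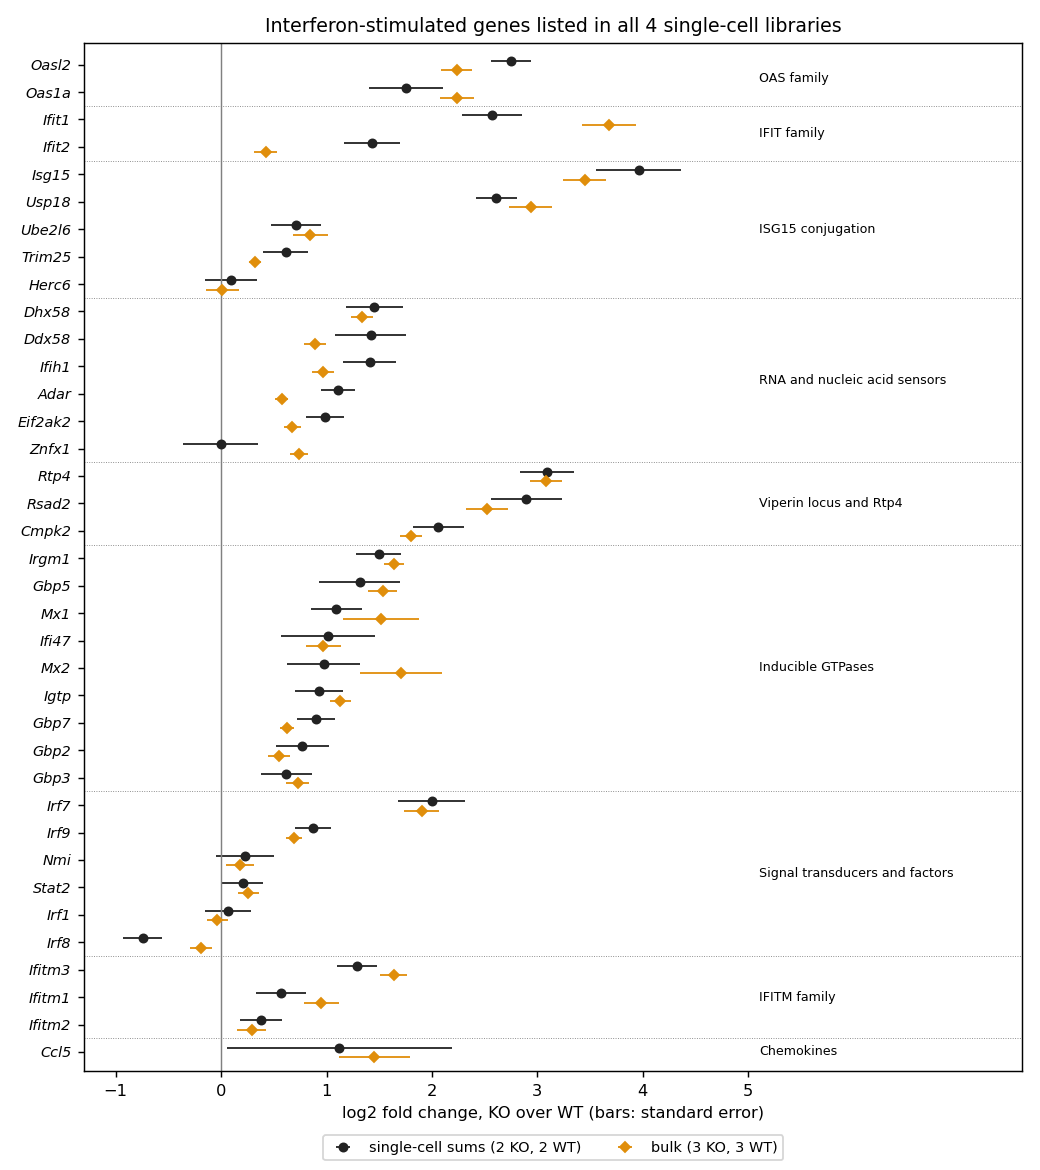
Log2 fold changes (KO over WT) of interferon-stimulated genes that were assigned a role and listed in all 4 single-cell libraries; black circles are the single-cell sums (2 KO and 2 WT libraries), orange diamonds the bulk libraries (3 and 3), and bars are standard errors. Isg15 (3.96), Rtp4 (3.09) and Rsad2 (2.896) lie farthest to the right in the single-cell sums, and Irf8 lies left of 0.

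The remaining genes at the upper end, among those with a mean of at least 20 CPM and no overlap, were Xaf1, Lgals3bp, Ly6a, Rnf213, Isg20, Ifi27, Slc25a33, Gm10800 and Hp. Xaf1, an interferon-induced antagonist of apoptosis inhibitors, had 40.6 and 49.9 CPM in KO and 8.98 and 14.4 CPM in WT (log2 fold change 1.94, SE 0.27, adjusted p = 0.229). Ly6a encodes Sca-1, the antigen used for the sort and itself an interferon-stimulated gene. It had 49.0 and 61.6 CPM in KO and 11.03 and 20.3 CPM in WT (1.81, SE 0.32, adjusted p = 0.229), and its reads could be shared with related Ly6 genes. Ly6a rose in bulk as well, at 13.2, 25.5 and 21.3 CPM in KO and 5.16, 7.39 and 8.02 CPM in WT. Hp, the haptoglobin gene of granulocyte progenitors, and Gm10800, a repeat-rich predicted gene whose counts are uncertain, rested on KO library 1. Hp had 67.2 and 18.7 CPM in KO and 14.0 and 14.0 CPM in WT, and its log2 fold change of 1.61 was 0.41 without KO library 1. Gm10800 had 59.7 and 14.7 CPM in KO and 9.30 and 12.8 CPM in WT, and its 1.74 was also 0.41 without that library.

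**Figure D2:**
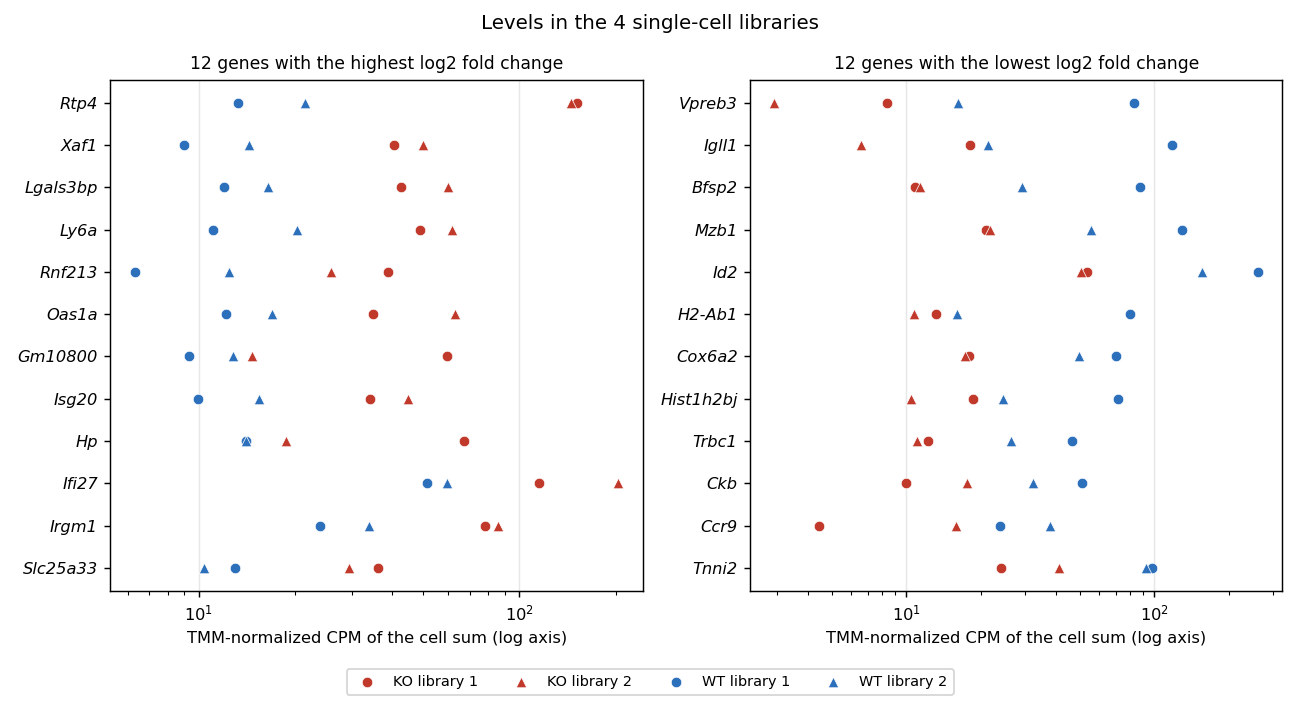
TMM-normalized CPM (log axis) of the 12 genes with the highest and the 12 with the lowest log2 fold change among listed genes with a mean of at least 20 CPM and no overlap; red is KO, blue is WT, circles are libraries 1 and triangles libraries 2. Rtp4 has the highest log2 fold change (3.09), with 152 and 145 CPM in KO against 13.2 and 21.4 CPM in WT, whereas Hp and Gm10800 have KO library 2 close to WT.

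The share of cells with a count was compared after thinning every cell to 1000 counts, which left 4073 and 3199 KO cells and 2463 and 3391 WT cells. Rtp4 was seen in 12.4% (exact binomial 95% CI 11.4 to 13.4%) and 12.1% (11.02 to 13.3%) of KO cells, and in 1.34% (0.924 to 1.88%) and 1.92% (1.48 to 2.44%) of WT cells. Without thinning the Rtp4 shares were 21.0 and 27.0% in KO and 2.78 and 3.69% in WT. Ifitm3 was seen in 46.9 and 42.8% of KO cells and in 18.3 and 25.0% of WT cells, and Wtap in 15.1 and 15.5% of KO cells and in 5.97 and 5.22% of WT cells. For each of these genes the KO shares lay above both WT shares, beyond their counting intervals. Mettl3 was seen in 5.87% (5.17 to 6.63%) and 5.06% (4.33 to 5.88%) of KO cells and in 3.05% (2.40 to 3.80%) and 3.33% (2.75 to 3.99%) of WT cells. Intervals cover counting error only. Were a gene's counts spread evenly over the cells of a library, Rtp4 would have been seen in 13.04 and 12.9% of KO cells. Thinned KO cells with an Rtp4 count held 1.13 and 1.14 of them on average. At so few counts the share depends little on the spread, so no evenness over cells is read from it.

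The 12 listed genes of the OAS, IFIT, Isg15 conjugation and viperin groups, with Rtp4, were then added up within each cell. At least 1 of these antiviral counts was found in 28.8% (27.5 to 30.3%) and 28.3% (26.7 to 29.9%) of KO cells and in 7.19% (6.20 to 8.28%) and 8.49% (7.58 to 9.48%) of WT cells. An even spread would give 31.7 and 32.5% of KO cells and 7.50 and 9.14% of WT cells. The KO counts were thus more concentrated than that. With so few counts per cell, the gap between these shares does not measure how strongly. Cells with at least 3 antiviral counts made up 1.84 and 2.06% of KO cells and 0.0812 and 0.147% of WT cells, and they held 16.8 and 20.9% of all antiviral counts in KO and 3.13 and 5.85% in WT. The mean was 0.382 and 0.394 per 1000 counts in KO and 0.0780 and 0.0958 in WT.

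The difference was also present in cells marked by genes of separate lineages, although a cell can carry more than 1 mark. Cells with stem markers (at least 3 counts over the list) had 454 and 496 CPM of antiviral genes (here without TMM) in KO and 96.8 and 122 CPM in WT. Cells with lymphoid markers had 508 and 423 CPM in KO and 77.1 and 111 CPM in WT. Cells with primary granule markers (at least 10 counts) had 281 and 315 in KO and 54.9 and 66.4 in WT, and cells with erythroid markers had 289 and 495 in KO and 72.5 and 119 in WT. In all 4 subsets both KO libraries lay above both WT libraries. The subsets held 89 to 462 cells a library, and cells with none of these marks had 394 and 365 in KO and 72.4 and 92.8 in WT. In thinned cells with erythroid markers Rtp4 was seen in 8.23 and 13.6% in KO and in 0.654 and 2.40% in WT, and the part that free RNA plays in these levels was not tested.

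**Figure D3:**
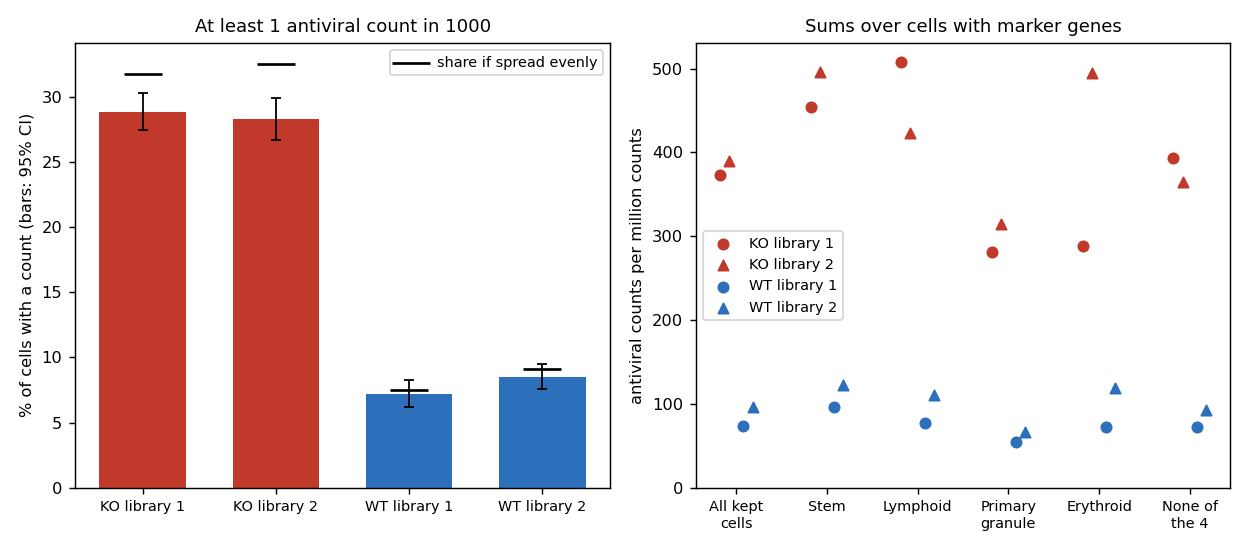
Left, the share of thinned cells with at least 1 of the 12 antiviral genes' counts in each library, with exact 95% intervals and the share an even spread would give; 28.8 and 28.3% of KO cells and 7.19 and 8.49% of WT cells had one. Right, the same genes' CPM in sums over all kept cells and over cells with marker genes; both KO libraries (red) lie above both WT libraries (blue) in each set.

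At the lower end stood genes of early lymphocytes, dendritic cells and antigen presentation. Of 27 listed lymphoid priming genes, 2 had both KO libraries above WT and 20 had both below, with a median log2 fold change of -1.15 that was -0.66 without KO library 1 and -0.78 without WT library 1. Among all listed genes, 25.7% lay above and 24.1% below. In bulk, 0 of the 27 rose and 23 fell, with a median of -0.98, beside 25.9% and 19.5% of all genes. Ly6d, the surface marker of B-lineage commitment, had 4.81 and 4.45 CPM in KO and 29.9 and 27.6 CPM in WT. The 4 libraries fell into tight pairs by genotype, and the log2 fold change was -2.63 (SE 0.18), with an adjusted p of 0.141 over all genes and 0.0175 among listed genes. Il7r, the interleukin 7 receptor of lymphoid progenitors, had 12.7 and 16.7 CPM in KO and 41.7 and 42.6 CPM in WT (-1.51). Flt3, the cytokine receptor of multipotent and lymphoid progenitors, had 27.9 and 46.4 CPM in KO and 65.4 and 75.7 CPM in WT (-0.92), and Ccr9, the thymus homing receptor, had 4.47 and 15.9 CPM in KO and 23.8 and 37.8 CPM in WT (-1.58, SE 0.59, adjusted p = 0.331, with -0.96 without KO library 1 and -2.78 without KO library 2). Il7r, Flt3 and the lymphoid genes in the next paragraph that lie under 20 CPM were picked after their values were seen.

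Surrogate light chain and other B cell genes depended on WT library 1. Vpreb3 had 8.36 and 2.94 CPM in KO and 82.4 and 16.1 CPM in WT, and its log2 fold change of -3.14 was -1.53 without WT library 1. Igll1 had 18.1 and 6.59 CPM in KO and 117 and 21.4 CPM in WT, so KO library 1 came close to WT library 2, and its -2.498 was -0.80 without WT library 1. Ebf1, the B cell specification factor, had 8.59 and 4.72 CPM in KO and 33.1 and 12.6 CPM in WT. Cells with lymphoid markers made up 2.48 and 7.93% of kept cells in KO and 16.9 and 9.94% in WT, whose part in these sums was not tested; in such sums fewer cells of a type and less RNA per cell cannot be told apart. Igll1 was seen in 1.10 and 0.500% of thinned KO cells and in 5.93 and 1.12% of WT cells, where an even spread would give 10.7 and 2.07% in WT. In thinned cells with erythroid markers, which should lack Igll1, the shares were 0.242 and 1.20% in KO and 2.61 and 0% in WT, with median depths before thinning of 2840 and 4725 counts in KO and 4262.5 and 2524 counts in WT. In KO library 2 the share over all thinned cells was thus below that in erythroid-marked cells, and no order is read from it.

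Id2, an inhibitor of E proteins that dendritic and innate lymphoid cells need, had 53.6 and 50.6 CPM in KO and 262 and 155 CPM in WT. Its log2 fold change was -2.0004 (SE 0.28, adjusted p = 0.229), and it was -1.57 without WT library 1. Id2 was seen in 3.93 and 4.16% of thinned KO cells and in 13.6 and 9.67% of WT cells, against 25.7 and 14.0% had the WT counts been spread evenly, so the WT counts lay in a part of the cells. In erythroid-marked cells the Id2 shares were 0.726 and 2.00% in KO and 1.63 and 3.60% in WT. Mzb1, a chaperone of antibody-secreting and plasmacytoid cells, had 21.0 and 21.6 CPM in KO and 129 and 55.5 CPM in WT (-2.11, SE 0.42, adjusted p = 0.229, with -1.38 without WT library 1). Siglech, a marker of plasmacytoid dendritic cells, had 2.75 and 5.43 CPM in KO and 21.7 and 23.4 CPM in WT. Of 12 listed dendritic cell genes, 10 had both KO libraries below WT and 1, the interferon-stimulated Bst2, had both above, with 167 and 112 CPM in KO and 68.8 and 47.3 CPM in WT. Among all listed genes, 24.1% lay below and 25.7% above. The dendritic cell list had a median of -0.84. In bulk 11 of the 12 fell and Bst2 rose, beside 19.5% of all genes that fell and 25.9% that rose.

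MHC class II genes followed the same order, with both KO libraries below WT for 6 of 7 listed genes and above for 0. Among all listed genes, 24.1% lay below and 25.7% above. The class II median was -1.09, or -0.63 without WT library 1, and 5 of 7 fell in bulk, beside 19.5% of all genes. H2-Ab1, a class II chain, had 13.2 and 10.7 CPM in KO and 79.6 and 16.0 CPM in WT, and its log2 fold change of -1.996 was -0.42 without WT library 1. H2-DMa, which loads peptides onto class II, was more even, with 18.8 and 27.7 CPM in KO and 51.2 and 47.9 CPM in WT (-1.09, SE 0.23, adjusted p = 0.245). Cells with class II markers made up 0.102 and 0.129% of kept cells in KO and 3.08 and 0.459% in WT; what share of these sums they account for was not tested. Class I genes lay the other way, with both KO libraries above WT for 8 of 14 and below for 0. H2-K1 had 259 and 366 CPM in KO and 165 and 221 CPM in WT (0.70, or 0.43 without KO library 2). In bulk, 11 of 14 class I presentation genes rose and 1 fell, beside 25.9% and 19.5% of all genes. Other genes at the lower end were Bfsp2, Cox6a2, Hist1h2bj, Trbc1, Ckb and Tnni2. Cox6a2, a muscle-type subunit of cytochrome c oxidase, had 17.9 and 17.2 CPM in KO and 70.3 and 49.7 CPM in WT (-1.77, SE 0.22, adjusted p = 0.229). Bfsp2, a lens filament gene, had 10.9 and 11.3 CPM in KO and 87.1 and 29.1 CPM in WT (-2.38, or -1.39 without WT library 1). Trbc1 shares reads with its near-identical copy and Hist1h2bj with other histone genes, so both are uncertain.

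Gene lists of protein synthesis and folding in this paragraph had small median changes above 0, and their named members were picked for large changes. Among all listed genes, 25.7% had both KO libraries above WT and 24.1% had both below. In bulk, 25.9% of all genes rose and 19.5% fell. Of 41 listed MYC target and ribosome biogenesis genes, 32 had both KO libraries above WT and 0 had both below, with a median log2 fold change of 0.39; in bulk 34 rose and 0 fell. Ncl, the nucleolar protein nucleolin, had 7353 and 6878 CPM in KO and 2991 and 3969.5 CPM in WT (1.03, SE 0.19, adjusted p = 0.229). Mybbp1a, a nucleolar regulator of ribosomal RNA synthesis, had 347 and 317 CPM in KO and 151 and 165 CPM in WT (1.07, SE 0.14, adjusted p = 0.229), and Polr1b, a subunit of RNA polymerase I, had 37.6 and 38.7 CPM in KO and 17.3 and 20.5 CPM in WT. Heat shock protein genes had 10 of 21 above and 0 below, with a median of 0.37 and 16 of 21 rising in bulk. Hspd1, the mitochondrial chaperonin, had 1112 and 987 CPM in KO and 607 and 598 CPM in WT, and Hsph1, a cytosolic co-chaperone, had 162 and 131 CPM in KO and 72.9 and 70.4 CPM in WT. Mitochondrial ribosomal protein genes had 44 of 74 above and 5 below, with a median of 0.23, and 56 rose and 0 fell in bulk. Mrps34, of the small mitochondrial subunit, had 352 and 337 CPM in KO and 140 and 146 CPM in WT (1.27, SE 0.13, adjusted p = 0.229).

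Cytosolic ribosomal protein genes did not follow. Of 82, 2 had both KO libraries above WT and 46 had both below, with a median of -0.33 that was -0.12 without WT library 1, the library with the highest ribosomal share. In bulk 3 of 81 rose and 0 fell, with a median of -0.01, beside 25.9% and 19.5% of all genes. In the 4 bulk libraries with RNA of both sexes, described below, 31 of 81 rose and 0 fell. There 33% of all genes rose and 18.4% fell. Cell cycle genes had small median changes. Of 29 G2 and mitosis genes, 16 had both KO libraries below WT and 2 above, beside 24.1% and 25.7% of all listed genes. Their median was -0.16, or -0.086 without WT library 2. In bulk 8 of the 29 fell and 4 rose, with a median of -0.13, beside 19.5% and 25.9% of all genes. Nusap1, a spindle protein, had 72.1 and 83.8 CPM in KO and 132 and 149 CPM in WT, and it also fell in bulk (-0.87, adjusted p = 7.29e-05). The 25 S phase genes had a median of -0.03, with 2 above and 2 below.

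Stem and multipotent progenitor genes mostly overlapped between genotypes in these sums. Of 37 listed, 28 overlapped, 6 had both KO libraries above WT and 3 had both below. Among all listed genes, 25.7% lay above and 24.1% below. The stem list had a median of -0.14. That median ran from -0.50 without KO library 2 to 0.14 without KO library 1 and was 0.098 without WT library 2, so these sums give no direction for the list. In bulk 3 rose and 24 fell, with a median of -0.40, beside 25.9% and 19.5% of all genes. Hlf, a factor of stem cell self-renewal, had 37.1 and 67.4 CPM in KO and 54.5 and 81.5 CPM in WT, which overlap, and Mecom, another such factor, had 7.21 and 12.2 CPM in KO and 9.14 and 15.4 CPM in WT. Both fell in bulk (adjusted p = 0.000784 for Hlf and 0.00197 for Mecom). No stem gene passed the test of the difference between the assays. As that test called only 2 of 10605 listed genes, this does not show equal changes in the assays. Cells with stem markers made up 2.60 and 11.9% of kept cells in KO and 7.73 and 7.07% in WT. Primary granule genes varied with KO library 1: Prtn3, the serine protease proteinase 3, had 552 and 248 CPM in KO and 247 and 153 CPM in WT, and its log2 fold change of 1.00 was 0.31 without KO library 1. Of 21 such genes, 7 had both KO libraries above WT and 2 below, beside 25.7% and 24.1% of all listed genes. Their median log2 fold change was 0.46, or 0.11 without KO library 1. Calr, on the same list, moved less, from 0.58 to 0.50 without that library. In bulk 15 of the 21 rose and 0 fell, beside 25.9% and 19.5% of all genes. Cells with primary granule markers made up 6.40 and 6.57% of kept cells in KO and 3.96 and 2.15% in WT, and their part in these levels was not tested. Immediate early genes had a median of -0.91 that was 0.94 without WT library 1, so these sums give no direction for them.

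**Figure D4:**
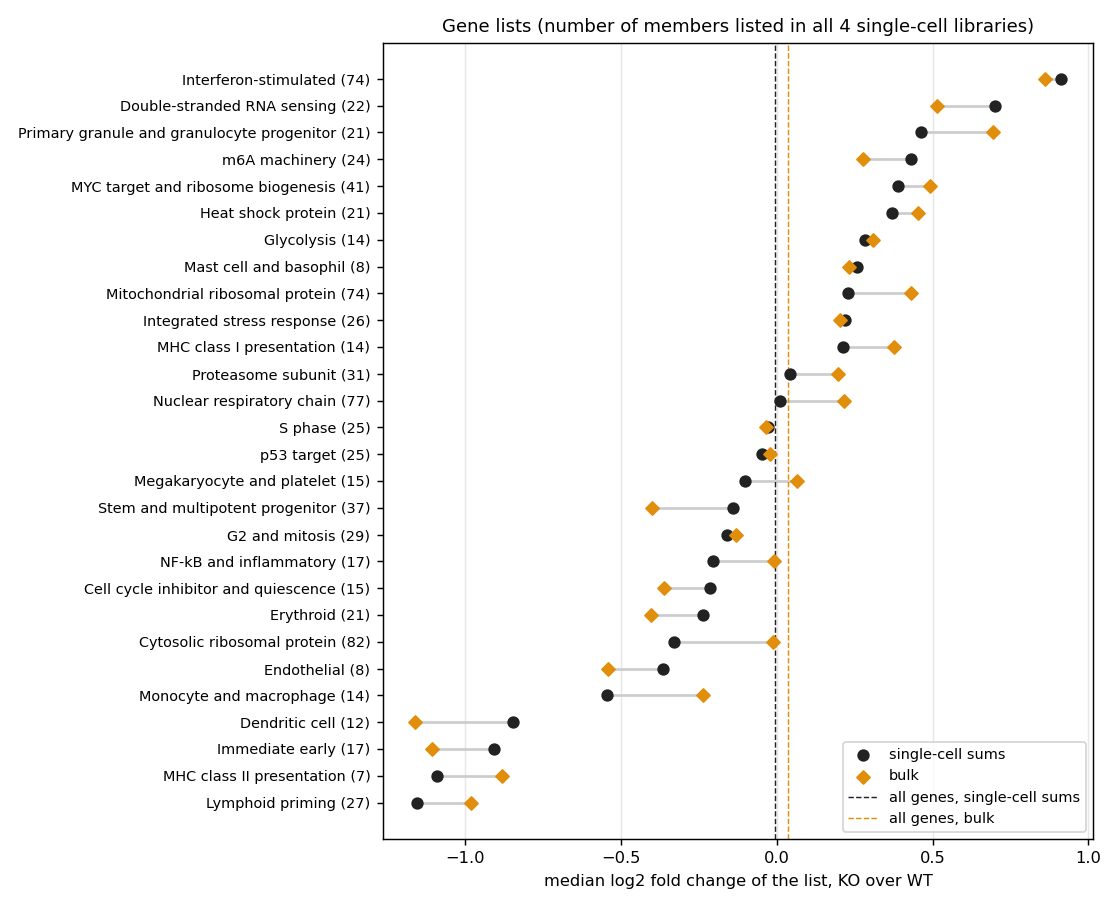
Median log2 fold change (KO over WT) of each gene list with at least 7 members listed in all 4 single-cell libraries, for the single-cell sums (black) and bulk (orange), with the number of members in brackets; dashed lines are the medians over all genes. Interferon-stimulated genes lie at 0.91 and lymphoid priming genes at -1.15 in the single-cell sums. Cytosolic ribosomal protein genes lie at -0.33 and -0.01 and stem genes at -0.14 and -0.40, differences between the assays that were not tested over a list.

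The bulk libraries gave the same genes a readout from other samples. Of the 992 listed genes higher in KO at an unadjusted p under 0.05, 88.2% rose in bulk and 0.302% fell, beside 25.9% and 19.5% of all 10605 genes. Of the 585 that were lower, 68.4% fell in bulk and 0.171% rose. Read the other way, 31.9% of the 2746 genes that rose in bulk and 19.4% of the 2064 that fell passed that unadjusted threshold in the same direction in the single-cell sums. Across these genes the changes had a Pearson r of 0.74 and a Spearman rho of 0.69, and r was 0.78 over the 5566 genes with a mean of at least 20 CPM. These are correlations across genes of the same 10 libraries, and genes are not independent replicates.

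Bulk KO libraries 2 and 3 and WT libraries 1 and 2 held both Xist and Y-linked transcripts, and so RNA of both sexes. The mix was not the same in the 2 genotypes. Xist had 7283 and 9600 counts in KO and 12734 and 7277 in WT, while Y-linked genes had 1155 and 1156 in KO and 4944 and 3531 in WT. The subset is therefore not balanced for sex, and the part of sex in its changes was not tested. Over these 4 libraries 33% of genes rose and 18.4% fell. Of the 74 interferon-stimulated genes, 64 rose and 2 fell there (median 0.85), and of the 27 lymphoid priming genes 0 rose and 22 fell (median -0.92). Rtp4 had a log2 fold change of 3.26 (adjusted p = 0.000198) and Id2 one of -1.81 (adjusted p = 0.000198) in this subset.

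**Figure D5:**
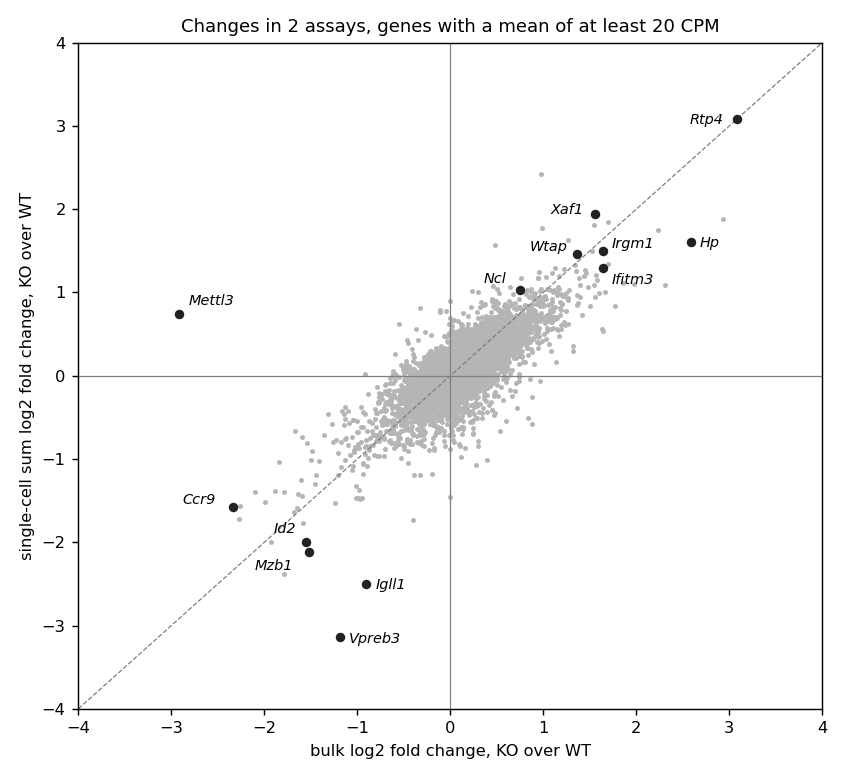
Log2 fold change (KO over WT) in bulk (x axis) and in the single-cell sums (y axis) of genes with a mean of at least 20 CPM that were measured in both; grey points are genes, black points named ones, and the dashed line marks equal change. Rtp4 lies on that line at 3.08 and 3.09, and Mettl3 lies alone at the upper left, at -2.92 in bulk and 0.74 in the single-cell sums.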

How the data were processed

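The single-cell and bulk tables hold raw counts per gene as deposited by the authors; whether the single-cell counts are unique molecules is not given in the sources used here. Per the submitters' processing notes, STAR 2.5.3a, Seurat 3.0, edgeR and the build GRCm38.p5 were used, with no role stated. Gene symbols were matched to identifiers for 14776 of 14780 genes, and X, Y and mitochondrial genes were left out. Counts were summed over kept cells and tested with edgeR 4.0.16 under R 4.3.3 (filterByExpr, TMM, quasi-likelihood F test, Benjamini-Hochberg adjustment, threshold 0.05). SE is the standard error of a log2 fold change, KO over WT. The 6 bulk libraries, of 20.1 to 40.6 M counts, were tested alike, and the difference between assays in 1 fit of 10 libraries. DESeq2 1.42.0, other scalings, filters and cell sets, left-out libraries and a replicate block were alternatives. Sums were simulated from a negative binomial count model with the gene dispersions estimated here. Of genes raised or lowered by 2 on the log2 scale, 89.8% and 62.8% were recovered, and 15.2% and 16.7% of those changed by 1. There were 10 false calls. The simulation did not list low genes at 0 as the deposited counts do. The real sums gave 0 calls, so the recovered shares may not hold for them. Shares of cells used cells thinned at random to 1000 counts. Megakaryocyte-marked cells were under 50 in every library and were not summed. Doublets were not removed. Promoters are from RefSeq.

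The members and gene lists were chosen with earlier results of these data known. Genes were to be named by rule: Mettl3, sort and lineage genes, the 12 highest and 12 lowest called genes with a mean of at least 20 CPM and no overlap, and leading called members of each list. As 0 genes were called, the same rule was applied without the call, to genes listed in all 4 libraries; this change, the interferon genes named by role and the other names were chosen after values were seen. Values of a few genes are not reported here.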

Additional observations from a re-analysis of the deposited data

Results flagged for a closer look

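The change of Mettl3 differed between the assays by a test of the difference itself, 3.70 on the log2 scale (single-cell minus bulk, adjusted p = 0.00105 over all 11430 genes tested in both), with a log2 fold change of 0.74 in the single-cell sums and -2.92 in bulk. Nfya differed by 1.22 (adjusted p = 0.00582), at 0.62 in the single-cell sums and -0.56 in bulk. Xist, an X-linked RNA outside the autosomal comparison, had 3069 counts in KO library 1 and 3538 in KO library 2 and was listed at 0 in both WT libraries.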

How the results depend on the processing

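The count of called genes in the single-cell sums, 0 under the test used, was 303 with DESeq2 (210 higher, 93 lower), 4 with a minimum of 100 counts in 2 libraries, 1 with genes of all chromosomes, 1 with thinned cells, 3 with the newer quasi-likelihood method of edgeR, 6 among genes listed in all 4 libraries and 82 there with robust fitting. Replicate numbers are not shown to pair the samples. The correlation of same-numbered deviations was 0.257, and with 2 libraries a side both pairs give the same value. With a replicate block the count was 120 (77 higher, 43 lower), and 1359 (798 higher, 561 lower) among listed genes. It stayed 0 without any 1 library. The number of genes whose change differed between the assays was 60 of 11430, of which 12 were listed in all 4 libraries, and 2 of 10605 in a fit limited to listed genes. Bulk calls, 3019 higher and 3158 lower, were 2358 and 4066 when scaled by library size alone. Of the named single-cell log2 fold changes, those of Kit, Cd34 and Ptprc, all near 0, changed sign. Kit, 0.01, was -0.0043 with RLE scaling, -0.0038 with DESeq2, -0.053 with the 100-count minimum, -0.0027 with stricter cells and -0.012 without cells of other types, and from -0.27 (without WT library 1) to 0.37 (without WT library 2) without 1 library, with -0.15 without KO library 2. Cd34, 0.08, was -0.025 with thinned cells and from -0.30 to 0.37 without 1 library (-0.11 without WT library 1), and Ptprc, 0.16, ran from -0.082 to 0.46. In bulk, Ptprc was -0.018 scaled by library size alone. The causes were not tested. With 2 libraries a side, changes of 1 on the log2 scale were mostly missed in simulated data.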
